A study of Mus musculus with 2 samples.

Results

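Of the 22132 R-loop peaks in primary mouse neural stem/progenitor cells (NSPCs), 2082 (9.41%) were AT-rich, that is, their sequence held at most 42% G+C. Members were chosen by base composition alone, counted over all bases other than N between the start and the end of each peak in the mm9 genome. Just inside the limit lay peaks of 41.997% and 41.999% G+C, and just outside lay peaks of 42.003% and 42.004%. The remaining peaks were split into a middle band of 16853 peaks, above 42% and up to 55% G+C, and 3197 GC-rich peaks above 55%. AT-rich peaks ranged from 24.1% to 41.999% G+C with a median of 40.1%, so most lay close to the limit.

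The cells came from the frontal brain of C57BL/6 mice at postnatal day 7 and were cultured. According to the methods of the study they were kept in 0.5 μM aphidicolin, an inhibitor of replicative DNA polymerases, for 48 h, while the sample labels name no treatment. DNA was treated with RNase A, cut with EcoRI, HindIII, BsrGI, SspI and XbaI, and precipitated with the S9.6 antibody, which binds RNA:DNA hybrids, with 3 reactions pooled per library. The input library was not analysed here. One list of peak positions was used, without counts, scores or replicate values, so depth is unknown, no spread between replicates can be given, and no difference between sets of peaks was tested. Intervals are 95% Wilson intervals for shares and 95% order-statistic intervals for medians, and they cover the counting of peaks only.

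An R-loop forms when an RNA pairs with the template strand of DNA and leaves the coding strand unpaired. R-loops are best known from CpG island promoters, where the coding strand downstream of the start carries more G than C, a property called GC skew. Simple repeats are a separate class, since tracts of alternating T and G, or of purines alone, can adopt structures other than the ordinary double helix.

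The AT-rich peaks differed widely in strand asymmetry, over a continuous range. GC skew was computed as (G - C)/(G + C), which is 0 when both strands hold the same number of G and 1 when all G lie on a single strand. In 768 AT-rich peaks (36.9%) the skew exceeded 0.4 in either direction, a boundary set after the values were seen, and these are called strongly asymmetric below. The other 1314 (63.1%) are called weakly asymmetric. Examples of each kind are given first, as windows of 60 bases where G most exceeded C in the peak outside annotated exons, read on the coding strand, or on the plus strand where no gene was present. The first set comes from weakly asymmetric peaks in genes, and these examples show G in short runs within mixed sequence. In some other weakly asymmetric peaks the same window was a simple repeat, of TG in Aqr and Ctnnd2 and of GA in Meis1. Capitals mark every G.
Hnrnpu, chr1:180262152-180262211, minus strand: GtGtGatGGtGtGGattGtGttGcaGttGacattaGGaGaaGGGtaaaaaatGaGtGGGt
Akirin2, chr4:34508745-34508804, plus strand: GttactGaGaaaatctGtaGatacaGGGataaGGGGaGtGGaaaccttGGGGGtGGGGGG
Ddx1, chr12:13244333-13244392, minus strand: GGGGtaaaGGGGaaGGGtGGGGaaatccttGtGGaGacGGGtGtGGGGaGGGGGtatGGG
Dnajb9, chr12:45305562-45305621, minus strand: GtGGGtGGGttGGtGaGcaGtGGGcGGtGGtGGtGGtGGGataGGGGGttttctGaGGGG

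The second set comes from strongly asymmetric peaks with G on the coding strand or, between genes, on the plus strand. Its windows are repeats of G with A or of G with T. As each window was chosen for its excess of G, it does not show how the rest of the peak was composed. Capitals again mark every G.
Spag16, chr1:70031720-70031779, plus strand: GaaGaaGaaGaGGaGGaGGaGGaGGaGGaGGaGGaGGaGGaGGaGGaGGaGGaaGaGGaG
Fmn2, chr1:176653829-176653888, plus strand: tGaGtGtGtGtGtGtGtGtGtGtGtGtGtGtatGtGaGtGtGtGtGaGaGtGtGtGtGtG
Accn1, chr11:80734280-80734339, minus strand: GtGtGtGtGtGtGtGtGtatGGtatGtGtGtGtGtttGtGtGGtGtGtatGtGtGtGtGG
between genes, chr1:46753123-46753182, plus strand: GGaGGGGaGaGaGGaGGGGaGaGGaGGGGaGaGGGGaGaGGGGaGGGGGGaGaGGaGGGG

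The third set comes from strongly asymmetric peaks with the opposite orientation. In genes the displaced coding strand would hold the C, and between genes the C is on the plus strand. Here the window with the largest excess of C over G was taken instead, and capitals mark every C.
Lphn3, chr5:82235103-82235162, plus strand: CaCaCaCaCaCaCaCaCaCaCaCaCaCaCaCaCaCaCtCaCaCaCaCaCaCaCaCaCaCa
Ppm1l, chr3:69148310-69148369, plus strand: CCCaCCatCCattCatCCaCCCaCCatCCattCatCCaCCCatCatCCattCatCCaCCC
between genes, chr2:56022008-56022067, plus strand: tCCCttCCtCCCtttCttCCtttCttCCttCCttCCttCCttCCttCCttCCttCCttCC

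AT-rich peaks lay mainly in introns and between genes, and few lay at gene starts. By midpoint, 1042 (50.0%, 47.9 to 52.2%) were in introns and 813 (39.0%, 37.0 to 41.2%) were intergenic. Another 112 (5.38%) lay at transcript ends, from 100 bp before to 1 kb after the end, 68 (3.27%) in exons and 47 (2.26%) in promoters, from 1 kb before to 100 bp after a transcript start. GC-rich peaks had 38.7% of their midpoints in promoters and 8.85% between genes, and middle-band peaks 7.69% and 24.0%. Thus the share in introns was alike in the AT-rich and middle bands, 50.0% and 52.3%, while the intergenic share was higher and the promoter share lower in the AT-rich band. Only 15.8% of AT-rich peaks touched any annotated exon, against 40.5% of middle-band and 78.2% of GC-rich peaks.

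**Figure D1:**
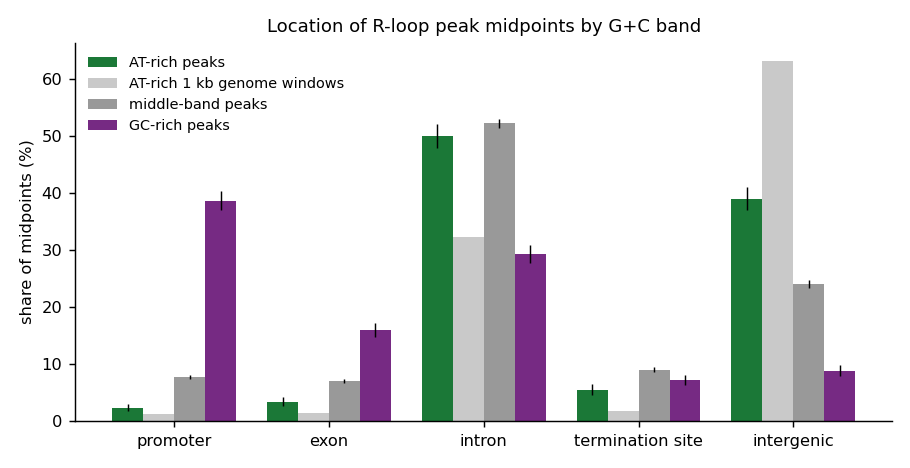
Share of peak midpoints (%, vertical axis) in each annotation class for AT-rich, middle-band and GC-rich peaks with 95% Wilson intervals, beside the same share for all AT-rich 1 kb windows of the genome (pale bars, no interval). AT-rich peaks were in introns more often than the AT-rich genome windows (50.0% against 32.3%) and between genes less often (39.0% against 63.3%).

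The AT-rich part of the genome was used sparsely. Windows of 1 kb with at most 42% G+C made up 53.6% of the genome, and peaks of any band covered 0.330% of their bases, against 3.21% in middle windows and 17.5% in GC-rich windows. Within the AT-rich windows, 63.3% were intergenic, 32.3% intronic, 1.79% at transcript ends, 1.40% exonic and 1.21% in promoters, so AT-rich peaks had a higher share than AT-rich DNA in every class but the intergenic one. Coverage of AT-rich windows was 1.61% at transcript ends, 1.34% in exons, 1.33% in promoters, 0.557% in introns and 0.136% between genes.

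AT-rich peaks were also short and isolated. Their median width was 703.5 bp (681 to 725), with 66.4% under 1 kb, compared to medians of 1406 bp in the middle band and 1514 bp in the GC-rich band. Together they spanned 2.24 Mb, or 4.56% of all peak bases. Measured edge to edge, the median distance from an AT-rich peak to the nearest peak of any band was 25.5 kb, against 8.24 kb for middle-band and 9.04 kb for GC-rich peaks. A neighbour within 10 kb was present for 32.7% of AT-rich peaks, 54.1% of middle-band peaks and 52.1% of GC-rich peaks. The nearest start of a protein-coding gene was at a median of 34.7 kb for AT-rich peaks, 19.6 kb for middle-band peaks and 1.14 kb for GC-rich peaks.

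The contrast with the surrounding DNA ran opposite to that of other R-loop peaks. Each peak was compared with the mean of windows of its own length 10 kb to either side. AT-rich peaks held a higher G+C than these flanks in 687 cases (33.0%), whereas 73.4% of all peaks, 73.6% of middle-band peaks and 98.97% of GC-rich peaks did. Because the rule selects low G+C, a low share is built into the set and is given as a description. The median difference was -1.89 percentage points, and the flanks themselves were AT-rich, with a median of 41.6% G+C. The CpG dinucleotide was depleted, with a median observed-to-expected ratio of 0.143, against 0.204 in middle-band and 0.592 in GC-rich peaks.

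Restriction sites were scarcer inside the peaks of each band than in genome windows of the same band. The 5 enzymes cut at sites rich in A and T. AT-rich 1 kb windows of the genome held 2.27 sites per kb, middle windows 1.42 and GC-rich windows 0.687. AT-rich peaks held 0.877 per kb, middle-band peaks 0.662 and GC-rich peaks 0.449. No site at all was present in 56.7% of AT-rich peaks, 52.6% of all peaks and 58.5% of GC-rich peaks, compared to 20.9% and 20.3% of AT-rich 700 bp windows in and outside genes. The restriction fragment at the midpoint of an AT-rich peak had a median length of 1.60 kb, against 2.08 kb over all peaks, 0.966 kb at the flanking windows and 0.773 and 0.762 kb at AT-rich windows of 700 bp inside and outside genes that held no peak. A site within 100 bp was found for 30.6% of the edges of AT-rich peaks and 28.8% of all edges. The part of fragment length in where AT-rich peaks were called was not tested.

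Strong asymmetry was far more frequent in AT-rich peaks than in neighbouring DNA. It was found in 36.9% of AT-rich peaks, 14.95% of middle-band peaks and 7.32% of GC-rich peaks, with 15.9% over all peaks. Among 4148 windows of the same lengths 10 kb away from AT-rich peaks, 60 (1.45%) passed the same boundary, and among AT-rich 700 bp windows of the genome without a peak 0.451% in genes and 0.612% outside genes did. The median absolute skew was 0.245 in AT-rich peaks and 0.0718 in their flanking windows. By G+C, the strongly asymmetric share was 43.8% in peaks of at most 36% G+C, 38.01% between 36 and 38%, 41.8% between 38 and 40%, 32.9% between 40 and 42%, 24.3% between 42 and 45%, and 4.44% above 60%. There was no steady fall below 40% G+C, and no step at the limit of 42%.

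**Figure D2:**
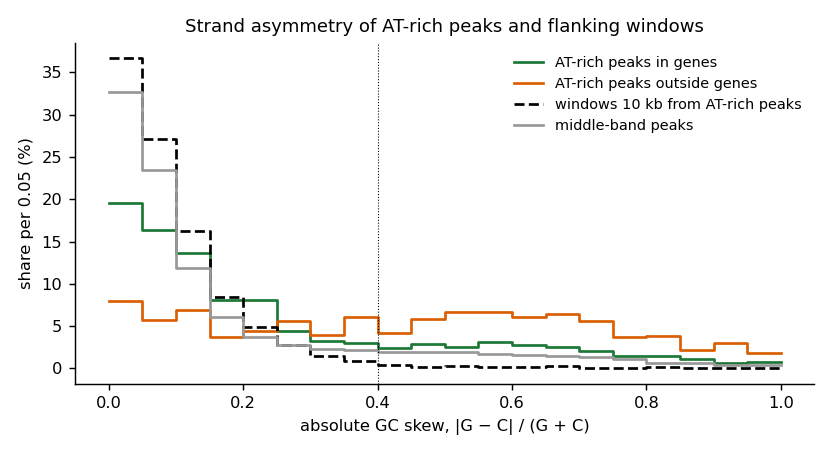
Distribution of absolute GC skew (horizontal axis, no unit; vertical axis, percent of peaks or windows per 0.05) for AT-rich peaks in genes, AT-rich peaks outside genes, windows 10 kb from AT-rich peaks and middle-band peaks; the dotted line marks 0.4. AT-rich peaks outside genes spread over the whole range with a median of 0.462, while the windows 10 kb away have a median of 0.0718.

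**Figure D3:**
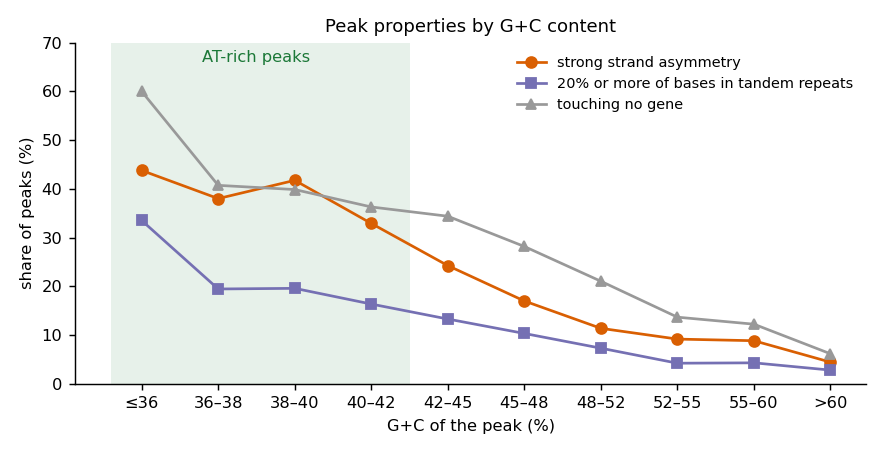
Share of peaks (%, vertical axis) with strong strand asymmetry, with 20% or more of their bases in tandem repeats, and touching no gene, for 10 classes of peak G+C (%, horizontal axis); shading marks the AT-rich peaks. The strongly asymmetric share falls from 43.8% at or below 36% G+C to 4.44% above 60%.

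Strongly asymmetric AT-rich peaks were rich in tandem repeats. Skew and repeats were read from the same bases, and a repeat whose unit holds G without C is itself strongly skewed. A higher repeat content is thus partly built into this class and is given as a description. Flanking windows with strong skew were not scored for repeats separately. Perfect tandem repeats of units of 1 to 6 bases, at least 15 bases long, took a median of 14.3% of their bases, against 2.13% in weakly asymmetric AT-rich peaks and 0% in the flanking windows. At least 20% of the bases lay in such repeats in 286 strongly asymmetric peaks (37.2%) and 112 weakly asymmetric ones (8.52%), compared to 1.21% of flanking windows. Imperfect repetition was scored as the highest share of bases equal to the base a fixed distance further on, with distances of 1 to 60 bases. Its median was 59.2% in strongly asymmetric peaks, 33.1% in weakly asymmetric peaks and 31.9% in flanking windows. Only 72 strongly asymmetric peaks (9.38%) held no perfect tandem repeat, and their median repetition was still 57.3%.

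Repeat units of 2 families led in most strongly asymmetric peaks. The unit with the most bases was AC, ACAT or ACACAT, read here without regard to strand, in 404 strongly asymmetric peaks (52.6%), against 21.5% of weakly asymmetric peaks and 8.08% of flanking windows. Alternating AC alone, which reads TG on the other strand, led in 303. Units of A and G only, such as AAG in 70 peaks, AAAG in 68 and AAGG in 34, led in 233 (30.3%), against 20.02% of weakly asymmetric peaks and 7.18% of flanking windows. Other units led in the remaining 59, among them AGAT in 19. Runs of a single A led in 1 strongly asymmetric peak, but in 5.30% of flanking windows.

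Looking at the strand with more G, T exceeded A in 490 strongly asymmetric peaks (63.8%) and A exceeded T in the other 278 (36.2%). The T-rich kind had a median width of 554 bp and the A-rich kind 491.5 bp. Perfect repeats took a median of 9.48% of bases in the former and 29.4% in the latter. Nearly the same share of each kind lay outside genes, 60.2% and 59.7%. Skew above 0.8 in either direction was reached by 137 strongly asymmetric peaks (17.8%).

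Position differed between the classes as well. Of the AT-rich peaks, 1132 had a midpoint in genes of a single orientation, 830 touched no gene and 120 were in other places, such as overlapping genes of both orientations. Strong asymmetry was present in 461 of the 830 outside genes (55.5%), in 269 of the 1132 in genes (23.8%) and in 38 of the other 120 (31.7%). Strongly asymmetric peaks were narrow, with a median width of 537 bp (514 to 554), and isolated, with a median of 55.1 kb to the next peak. Weakly asymmetric peaks had a median width of 946 bp (885 to 1014) and a median gap of 15.5 kb. An exon was touched by 1.82% of the former and 24.0% of the latter. AT-rich peaks outside genes lay at a median of 28.9 kb from the nearest annotated gene, and 330 lay at least 50 kb away.

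Width tracked the split closely. Strong asymmetry was present in 51.9% of the 642 AT-rich peaks under 0.5 kb, 49.1% of the 740 between 0.5 and 1 kb, 15.7% of the 413 between 1 and 2 kb and 2.44% of the 287 of 2 kb or more. The share touching no gene fell along the same classes from 49.8% to 15.3%.

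In genes, AT-rich peaks held more G than C on the coding strand more often than not. This was so for 777 of 1132 (68.6%, 65.9 to 71.3%), which lies close to the 66.1% of all 13592 peaks in genes of a single orientation. The median coding-strand GC skew was 0.0743 (0.0662 to 0.0852) in AT-rich peaks, 0.0402 in middle-band peaks and 0.0262 in GC-rich peaks. Read on the plus strand instead, without regard to the gene, 51.1% of the same AT-rich peaks had more G than C. Thus the orientation followed the gene, at a frequency like that of other peaks.

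The orientation was seen mainly in the weakly asymmetric peaks. Of the 863 in genes, 634 (73.5%, 70.4 to 76.3%) had more G on the coding strand. Weakly asymmetric genic peaks above the AT-rich limit were alike, with 73.9% at 42 to 45% G+C and 70.2% at 45 to 48%. Of the 269 strongly asymmetric AT-rich peaks in genes, 143 (53.2%, 47.2 to 59.0%) had more G on the coding strand. For those with T over A on the G-rich strand the count was 94 of 171 (55.0%) and for those with A over T 49 of 98 (50.0%). The intervals of these strongly asymmetric counts include 50%. With the boundary at 0.3 in place of 0.4, the share was 56.3% (51.0 to 61.5%), an interval that does not. Their members also lay deeper in genes and in longer genes, at a median of 64.5 kb from the gene start in genes of median length 170.5 kb, against 27.3 kb and 72.5 kb for the weakly asymmetric peaks.

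The G excess was present in the surrounding gene body as well, at a smaller size. Windows 10 kb from weakly asymmetric peaks that lay in the same gene had more G than C on the coding strand in 64.9% of 1259 cases, with a median skew of 0.0342, and in 65.6% of 765 cases when restricted to windows that were AT-rich and free of peaks. AT-rich 700 bp windows in genes across the genome did so in 56.5% of 628883 cases, with a median of 0.0189. Of 1036 AT-rich peaks with such flanks, 606 (58.5%) had a higher skew than the flank mean, against 54.8% of all peaks with flanks, and of the 772 weakly asymmetric ones 465 (60.2%) did. In pooled profiles of weakly asymmetric peaks, skew was 0.0588 and 0.0714 in the bins just before and after the midpoint, and 0.0336 and 0.0346 at the ends of the profile, 5 kb to either side.

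**Figure D4:**
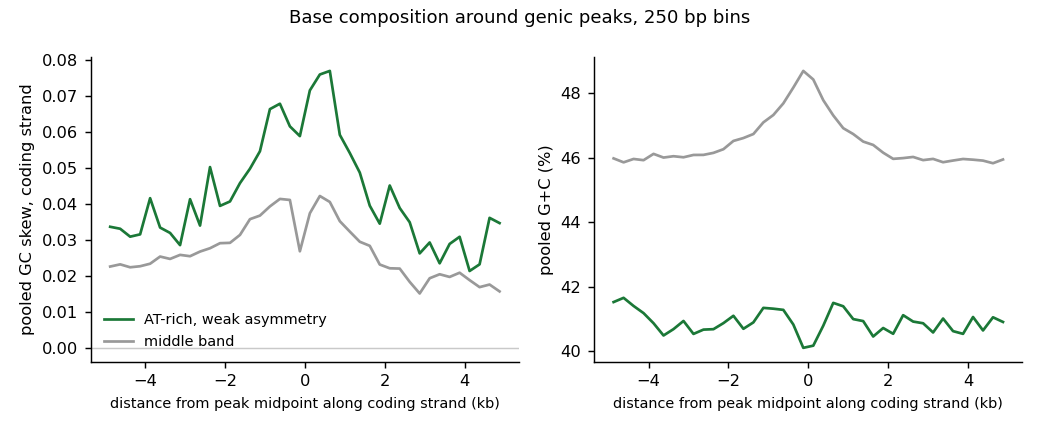
Pooled GC skew on the coding strand (left, no unit) and pooled G+C (right, %) in 250 bp bins against distance from the peak midpoint (kb, along the direction of transcription) for weakly asymmetric AT-rich peaks and middle-band peaks in genes. Around AT-rich peaks the skew rises from 0.0336 at the upstream edge to 0.0714 just after the midpoint while G+C stays near 40%, from 41.5% to 40.2%; in the middle band G+C rises from 46.0% to 48.4%.

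The share with G on the coding strand fell with distance from the gene start. In weakly asymmetric AT-rich peaks it was 82.4% (76.1 to 87.3%) of 176 within 10 kb, 75.3% of 417 between 10 and 50 kb, 69.2% of 130 between 50 and 100 kb, 66.7% of 96 between 100 and 300 kb and 47.7% (33.8 to 62.1%) of 44 beyond. Median skew went from 0.0974 to -0.00125 over these classes. The decline was not particular to AT-rich peaks. Middle-band peaks in genes, of weak and strong asymmetry together, gave 72.8%, 67.4%, 64.4%, 57.7% and 57.8% over the same classes. AT-rich 700 bp windows without a peak gave 61.3%, 59.9%, 58.2%, 54.0% and 50.3%. The weakly asymmetric AT-rich peaks and these windows thus declined together, with the peaks higher in each class except the last. The windows had a fixed length and came from all genes, whereas these peaks had a median width of 1038 bp. As the share also rose with peak width, the size of the gap is not a like comparison. Strongly asymmetric peaks showed no such decline, with 58.6% of 29, 50.5% of 95, 58.3% of 36, 53.0% of 66 and 51.2% of 43. They made up 14.1% of AT-rich genic peaks within 10 kb of the start and 49.4% beyond 300 kb.

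**Figure D5:**
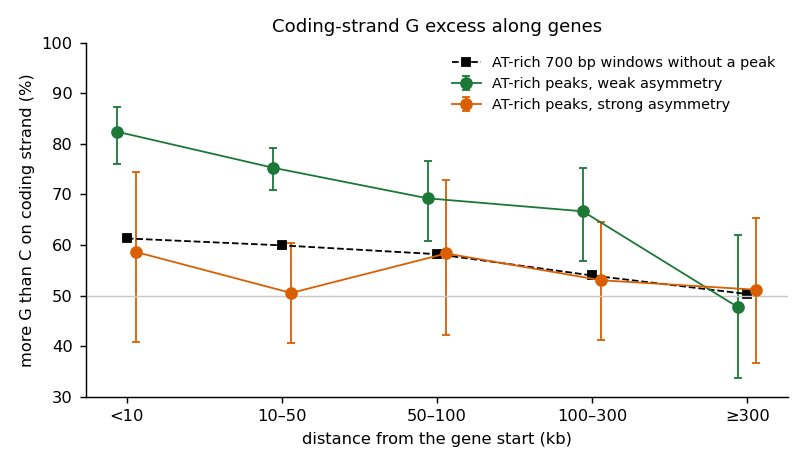
Share of AT-rich peaks with more G than C on the coding strand (%, vertical axis, which starts at 30) by distance of the midpoint from the gene start (kb, horizontal axis), with 95% Wilson intervals, for weakly and strongly asymmetric peaks, and for AT-rich 700 bp windows without a peak (squares, no interval). The weakly asymmetric peaks fall from 82.4% to 47.7%, and the strongly asymmetric peaks stay between 50.5% and 58.6%. The windows come from all genes and are not matched to the peaks in width.

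Wider peaks were oriented more often. Among weakly asymmetric AT-rich peaks in genes, G exceeded C on the coding strand in 61.5% of 182 under 0.5 kb, 70.3% of 239 between 0.5 and 1 kb, 74.3% of 237 between 1 and 2 kb and 86.8% (81.5 to 90.8%) of 205 of 2 kb or more. The median skew of these classes stayed between 0.0625 and 0.0776, so the wider peaks were more uniform in sign and not larger in skew.

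A and T were distributed differently. On the coding strand, A exceeded T in 456 of 1132 AT-rich peaks in genes (40.3%, 37.5 to 43.2%), against 33.2% of all peaks in genes of a single orientation. In windows 10 kb away within the same gene it did so in 29.9%, and in AT-rich 700 bp windows of genes in 33.7%. Of the AT-rich peaks with flanks, 56.3% had a higher AT skew than the flank mean, close to the 55.0% of all such peaks.

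Tract motifs showed where the purines lay. Motifs were searched on both strands and may overlap one another. At least 10 units of GA were found on the coding strand of 61 AT-rich genic peaks (5.39%) and on the template strand of 29 (2.56%), against 1.43% and 1.84% of flanking windows. Purine tracts of at least 30 bases gave 15.02% on the coding and 11.2% on the template strand, compared to 3.79% and 6.94% in flanks, so the strand that held them more often was reversed. This reversal came from the weakly asymmetric peaks, with 14.7% and 9.50%, since the strongly asymmetric ones gave 15.99% and 16.7%. At least 10 units of TG were found in 13.8% and 11.1%, against 5.74% and 3.56%. The G4 motif was 4 runs of at least 3 G separated by at most 7 bases. It was found in 6.27% on the coding and 4.24% on the template strand, against 5.34% and 6.02% in flanks. The small excess on the coding strand was confined to weakly asymmetric peaks, with 7.18% against 5.23% in their flanks. Strongly asymmetric peaks gave 3.35% against 5.63%. Middle-band peaks held the G4 motif in 23.3% on the coding and 21.4% on the template strand, against 14.9% and 17.3% in their flanks. As middle-band peaks were wider and each peak was scored once, the 2 bands are not matched in this count. A tracts of at least 15 bases were in 2.74% and 4.24% of peaks and 2.58% and 6.02% of flanks.

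Only 5 AT-rich peaks (0.240%) held the start of a protein-coding gene, against 13.0% of all peaks and 47.0% of GC-rich peaks. The widest, 7.35 kb, covered the start of Dnajb9, which encodes a chaperone of the endoplasmic reticulum, had 40.8% G+C and a coding-strand skew of 0.07. A peak of 2.16 kb held the start of Cntf, a neurotrophic factor gene that lies within the span of Zfp91 here. The other 3 held starts of the predicted genes Gm9990, Gm20537 and Gm9766. The peak at Gm20537 also overlapped the RNA-binding protein gene Syncrip.

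The widest AT-rich peaks were weakly asymmetric. The widest of all, 8.995 kb at chr10:83052541-83061535, lay in A230046K03Rik, had 40.2% G+C and a coding-strand skew of 0.08. A peak of 7.61 kb in Akirin2, a nuclear protein gene, had 36.9% G+C, against 42.1% in its flanks, and a skew of 0.12. One of 7.47 kb at the 3' end of Ythdc1, which encodes a nuclear reader of methylated adenosine in RNA, had 35.9% G+C. Another 2 among the widest 5 did not lie in a protein-coding gene, one of 8.43 kb that overlapped the non-coding gene C130071C03Rik on chromosome 13, with 3139 bases in annotated exons, and one of 8.00 kb on chromosome 18.

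Among AT-rich peaks of at least 1 kb in genes, both ends of the range of skew lay in introns. Perfect tandem repeats took from 5.05% of bases in Srpx to 70.4% in 1700017D01Rik. The highest coding-strand skew was 0.98 in Spag16, a sperm flagellum gene, where 441 G and 5 C were counted and 66.7% of bases lay in tandem repeats led by AAG. It was followed by 0.76 in the ion channel gene Accn1, 0.69 in the actin nucleator gene Fmn2, 0.67 in 1700017D01Rik and 0.67 in Srpx. The lowest was -0.93 in the phosphatase gene Ppm1l, with 27 G and 771 C and ATCC as its leading unit. It was followed by -0.80 in A930011G23Rik, -0.72 in the calcium channel gene Cacna1d, -0.67 in the transporter gene Slc16a10 and -0.60 in the adhesion receptor gene Lphn3. The AT-rich peak of at least 1 kb with the lowest G+C, 31.0%, lay 128.4 kb from the nearest annotated gene at chr2:56020863-56022153, where AAAG was the leading unit.

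Genes with AT-rich peaks were long. Of 22367 protein-coding genes, 1017 (4.55%) overlapped an AT-rich peak and 8858 overlapped a peak of any kind. For 290 genes, AT-rich peaks were the only peaks. The share rose from 0.474% of genes under 10 kb to 2.73% at 10 to 30 kb, 8.16% at 30 to 100 kb, 14.2% at 100 to 300 kb and 25.9% above. Peaks of any kind were also more frequent in longer genes, from 1969 of 8861 in the shortest class to 360 of 528 in the longest. Among genes with a peak of any kind, the share with an AT-rich peak rose from 2.13% to 38.1%. Median gene length was 73.7 kb with an AT-rich peak and 24.3 kb with other peaks only. A single AT-rich peak was present in 852 of these genes, 2 to 4 in 160 and 5 or more in 5.

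Ptprz1 had the most, with 7 of its 10 peaks AT-rich. It encodes a receptor tyrosine phosphatase of neural progenitors and glia and lies at chr6:22825502-23002916 on the plus strand. All 7 midpoints were intronic, the widths ran from 0.461 to 7.43 kb and 6 of 7 had more G on the coding strand. Exoc4, an exocyst subunit gene, had 6 AT-rich peaks of 16, of which 3 had more G. Vav3, which encodes a guanine nucleotide exchange factor, had 6 of 11, all with more G on the coding strand and skews from 0.06 to 0.38. Ankrd17 had 5 of 8, also all with G in excess. In Arfip1, whose annotated span in this release is 1391 kb, 5 of 10 peaks were AT-rich, and the 4 with a single gene orientation all had more C. Another 5 genes had 4 AT-rich peaks each, 4933426M11Rik, Rgs20, the importin gene Tnpo1, the neural transcription factor gene Npas3 and the myosin phosphatase gene Ppp1r12a.

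Genes for RNA-binding and splicing factors held AT-rich peaks that mostly had more G on the coding strand. An AT-rich peak overlapped 12 of 41 (29.3%), although their median length was 20.1 kb. Of their 16 AT-rich peaks in genes of a single orientation, 15 had more G on the coding strand, and 1 of 17 was strongly asymmetric. The share was 68.6% of all AT-rich peaks in genes and 73.5% of the weakly asymmetric ones. Among the latter it was 82.4% within 10 kb of the gene start and 86.8% at widths of 2 kb or more. Several of the 16 peaks shared a gene. No list was tested against the others or against these shares. Qk, which regulates splicing in glia, had 4 AT-rich peaks with skews from 0.10 to 0.25, and Sfpq had 2 with 0.10 and 0.20. Hnrnpu had a peak of 4.80 kb with 37.7% G+C, against 45.3% in its flanks, and a skew of 0.21. In Rbfox1, the longest of these at 603.3 kb, the peaks had skews of -0.23 and 0.75. Named after their values were seen, Pnn, Hnrnpa3, Tardbp, Hnrnpa2b1, Celf2, Hnrnph1 and Mbnl1 each had 1 AT-rich peak with a skew from 0.07 to 0.25, and Mbnl2 had 1 without a single gene orientation.

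Genes that act on R-loops and supercoils were found among the hosts too, in 6 of 26 (23.1%), with G in excess in 6 of 7 peaks. Dhx9, a helicase that unwinds RNA:DNA hybrids, had a peak of 4.08 kb near its 3' end with a skew of 0.20. The helicase gene Ddx1 had 2 peaks with 0.19 and 0.34, Ddx5 had 0.07 and the splicing helicase gene Aqr 0.15. The exonuclease gene Xrn2 had 0.36 and Top2b, which encodes a topoisomerase, had -0.30; both were named after their values were seen.

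In synaptic and cell adhesion genes, AT-rich peaks overlapped 11 of 36 (30.6%), whose median length was 966.9 kb, with 6 of 17 peaks strongly asymmetric and G in excess in 9 of 17. Cntn4 and Magi1 had 3 each, with 1 of 3 oriented to G in both. Cdh13 and Cntnap2 had 2 each, with skews of 0.38 and 0.44 in the former and -0.25 and -0.43 in the latter. RDC-genes hold recurrent DNA break clusters in NSPCs, and only the 9 named in the text of the study were examined. AT-rich peaks overlapped 4 of these 9, whose median length was 1041 kb, and peaks of any kind overlapped 7. Of all protein-coding genes of 300 kb or more, 25.9% overlapped an AT-rich peak, which is the share to set beside both of these lists. Among the RDC-genes, Npas3 had 4 AT-rich peaks of 25, Cdh13 had 2 of 23 and Ctnnd2 had 1 of 13. The peak in Ctnnd2 was 3.498 kb wide with a skew of 0.03.

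Neural transcription factor genes had AT-rich peaks in 15 of 51 (29.4%), with G in excess in 17 of 24. Zeb1 had 3 with skews from 0.09 to 0.14 and Meis1 had 2 with 0.08 and 0.14, while the 2 in Sox5 had -0.08 and -0.64. Growth factor receptor and signalling genes had them in 9 of 36, with 9 of 14 to G. Beside Ptprz1 these included Bmpr1a with -0.03 and Insr with 0.14. The peak in Fgfr2, whose annotated span here is 3009 kb, overlapped a second gene and has no single orientation. Translation factor genes had the fewest, 3 of 28 (10.7%), in Eif2s2, Eif3a and Eif4g2. Each of these lists had a share above the 4.55% of all protein-coding genes. Peaks of any kind were also more frequent in each list than the 39.6% of all protein-coding genes. They overlapped from 16 of 26 genes that act on R-loops and supercoils to 36 of 41 RNA-binding and splicing factor genes. The genes of the lists were chosen with earlier results of these data known. Their median lengths, from 18.7 kb for translation factors, exceed the 15.4 kb of all genes.

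Of the cell identity markers, only the presence of a peak can be read from a list of positions. A peak of any kind overlapped 39.6% of all protein-coding genes. Neural stem/progenitor markers had one in 10 of 13 genes, with an AT-rich one of 0.976 kb in Slc1a3. Markers of neurons had peaks in 0 of 5 genes, microglia in 2 of 6, endothelial cells in 1 of 5 and oligodendrocytes in 1 of 4, the last a strongly asymmetric AT-rich peak in Mbp.

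Across autosomes, AT-rich peaks made up 5.71% of peaks on chromosome 7 to 14.5% on chromosome 3, and their density was 0.856 per Mb overall. Chromosome X held 34, or 0.210 per Mb, although it is the most AT-rich of these chromosomes after Y, which held 0. Peaks of any kind numbered 293 on X, and the AT-rich share of them, 11.6%, was within the range of the autosomes. Relative to AT-rich windows, the density was 1.64 per Mb on autosomes and 0.290 per Mb on X. The strongly asymmetric share ranged from 26.6% on chromosome 12 to 49.4% on chromosome 8 and was 8 of 34 on X.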

How the data were processed

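The authors trimmed reads with Trim Galore 0.6.6, aligned to mm9, discarded duplicate reads and identified peaks by a Hidden Markov Model. The authors deposited a single list of peak positions in base pairs, with no other value. The rule that combined replicates is not given in the sources used here. G+C, GC skew and AT skew were counted from the mm9 sequence, and positions were compared with GENCODE M1 (22367 protein-coding genes, overlap of at least 1 bp). Composition was compared with windows of equal length 10 kb to either side, with 1 kb windows of the genome and with AT-rich 700 bp windows free of peaks. Named peaks were the 5 widest, lowest in G+C, over gene starts, and highest and lowest in skew, and the 10 genes with the most AT-rich peaks and up to 4 per list were named. Some named genes are not reported here. Members and lists were chosen with earlier results of these data known. Functions were tested on simulated data. Calculations used Python 3.11.15, numpy 2.4.6, pandas 2.3.3 and scipy 1.17.1, with matplotlib 3.10.9.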

Additional observations from a re-analysis of the deposited data

How the results depend on the processing

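Across 14 results and 111 alternatives, 71 values stayed within the 95% interval of the reported value, or within 1.5 times a count, and 40 moved. No share crossed 50% among the strand results, but the intron share did. With a limit of 40% G+C there were 988 AT-rich peaks of median width 640 bp, 47.7% in introns, 42.3% intergenic, 23.5% above their flanks in G+C, a median coding-strand skew of 0.0947, 486 genes and 41.3% strongly asymmetric. With a limit of 45% there were 5220 peaks of 823 bp, 35.9% intergenic, 0.594% over a gene start, 45.8% above their flanks, 2338 genes and 29.3% strongly asymmetric. Peaks of at least 1 kb numbered 700, of median width 1700.5 bp, with 55.7% in introns, 25.9% intergenic, 0.714% over a gene start, 41.0% above their flanks, 79.1% with more G and 36.3% with more A on the coding strand, 458 genes, 10.3% strongly asymmetric, and 80.1% of weakly and 60.9% of strongly asymmetric ones with more G. Without peaks whose edge lay within 100 bp of a restriction site, 1022 remained, of median width 662 bp, with 54.3% in introns, 33.6% intergenic, 36.8% with more A, 582 genes, 34.1% strongly asymmetric and 69.98% of weakly asymmetric ones with more G. A promoter of 2 kb to either side gave 46.6% in introns, and windows 5 and 20 kb away gave 35.3% and 29.6% above their flanks. Boundaries of 0.3 and 0.5 for strong asymmetry, chosen after seeing the data like every alternative for the asymmetry classes, gave 44.6% and 29.8%. The causes were not tested. Leaving out repeat-masked bases was not run, since the genome used marks no repeats. No paired analysis was possible because the comparison rests on 1 list of peaks. Without counts or scores, depth and signal behind a peak are unknown, and a narrow peak gives a less precise skew.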
